A study of Mus musculus with 11 samples.

Results

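Genes for the secretions of the exocrine pancreas and of the salivary and lacrimal glands were followed in thymic epithelium. The set was given as 32 mouse symbols, and its members are the rows of the deposited count table whose Ensembl identifiers carry those symbols. Of the 32 symbols, 31 matched 1 row each among the 56691 genes of the table, and Muc19 was not analysed here. The matched members are 17 pancreatic genes, 13 salivary or lacrimal genes and Bhlha15, a transcription factor of secretory cells.

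Acinar cells of the pancreas make digestive enzymes, many of them as inactive zymogens, and store them in granules that are released into the gut. Salivary and lacrimal acini work in the same way and fill saliva and tears with mucins, amylase, peroxidase and small carrier proteins. In the thymus, medullary epithelial cells transcribe many such tissue-restricted genes in scattered single cells, in large part under Aire, so that developing T cells meet the proteins. The pancreas, salivary glands and lacrimal glands are among the organs that autoimmune disease can affect in mice without working Aire.

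The libraries came from thymic cells of NOD mice, a strain prone to autoimmune diabetes and to inflammation of the salivary and lacrimal glands, aged 4 to 8 weeks. CD45-positive cells had been depleted with magnetic beads, and the EpCAM-positive, CD45-negative cells were sorted and sequenced from low-input RNA. The 3 genotypes differ at Aire, where R249C exchanges an amino acid in the SAND domain: WT/WT carries no variant copy (3 libraries), WT/R249C carries it on 1 allele (5 libraries) and R249C/R249C on both (3 libraries). Per the batch label, WT/WT replicate 1, WT/R249C replicates 1 to 3 and the 3 R249C/R249C libraries form batch A. WT/WT replicates 2 and 3 form batch B together with WT/R249C replicates 4 and 5. The last 2 are contested: their titles say WT/R249C while their genotype entry says R249C/R249C, and the title was followed here. The number of mice behind a library is not stated, and the spread that enters the tests is that among libraries, part of which may be technical.

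Total counts ran from 60560348 to 182319976 per library, and values are counts divided by that total and scaled to a common library size (CPM). A gene without a count could still have been present at up to 0.0165 to 0.0495 CPM, the level of 3 counts in the deepest and the shallowest library, and this limit covers counting error only. The 6 thymic epithelial markers, Epcam, Krt5, Krt8, Foxn1, Psmb11 and Ly75, were detected in all 11 libraries, and Aire itself ran from 174 to 858 CPM. The 6 B lineage markers summed to 1394 to 2989 CPM in WT/WT, 92.9 to 481 in WT/R249C and 248.7 to 531 in R249C/R249C, with 5 or 6, 3 to 6 and 3 to 5 of them detected. The leukocyte marker Ptprc ran from 0.217 to 26.2 CPM and was lowest in WT/R249C replicates 3 and 5, which also held the fewest genes (22101 and 23073). Markers of T lineage cells summed to 123 to 185 CPM in WT/WT, 63.3 to 112 in WT/R249C and 81.8 to 117 in R249C/R249C. Fibroblast markers, Dcn among them, summed to 1418 to 2095, 860 to 1974 and 1206 to 2289 CPM in the same order. The part of these differences in the results on gland genes was not tested.

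The start regions of the acinar genes show what the letters of a pancreatic promoter look like. In acinar cells the PTF1 complex, built around Ptf1a and Rbpjl, binds an E-box beside a TC-box on 1 face of the DNA. RefSeq promoters of mouse build GRCm38.p6, 250 bases before to 50 bases after a start, were matched for 29 members. They were searched on both strands for the E-box CACCTG, for the TC-box TTTCCC, and for a paired site, in which any E-box CANNTG lies 5 or 15 bases before TTTCCC. The counting used build mm39, so these windows serve for sequence only. The 4 windows were chosen because Cel and Cpa1 hold the paired site, while Cela2a and Prss2 hold both boxes apart from each other. Each runs 5′ to 3′ on the gene's strand, and capitals mark the boxes in either orientation. The windows are chr2:28563354-28563653 on the minus strand for Cel, chr6:30638968-30639267 on the plus strand for Cpa1, chr4:141825956-141826255 on the minus strand for Cela2a and chr6:41521526-41521825 on the plus strand for Prss2.
Cel: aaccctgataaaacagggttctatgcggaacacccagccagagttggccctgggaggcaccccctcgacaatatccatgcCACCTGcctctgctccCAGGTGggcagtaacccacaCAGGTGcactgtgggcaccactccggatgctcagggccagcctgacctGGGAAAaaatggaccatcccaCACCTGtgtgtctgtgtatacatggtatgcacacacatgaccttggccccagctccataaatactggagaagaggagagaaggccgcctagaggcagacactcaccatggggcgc
Cpa1: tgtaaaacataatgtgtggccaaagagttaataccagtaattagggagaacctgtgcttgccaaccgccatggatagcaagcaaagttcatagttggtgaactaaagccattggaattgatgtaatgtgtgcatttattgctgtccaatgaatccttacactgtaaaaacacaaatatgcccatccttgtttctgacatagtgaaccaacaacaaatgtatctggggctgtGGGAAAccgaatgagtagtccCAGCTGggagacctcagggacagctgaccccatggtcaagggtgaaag
Cela2a: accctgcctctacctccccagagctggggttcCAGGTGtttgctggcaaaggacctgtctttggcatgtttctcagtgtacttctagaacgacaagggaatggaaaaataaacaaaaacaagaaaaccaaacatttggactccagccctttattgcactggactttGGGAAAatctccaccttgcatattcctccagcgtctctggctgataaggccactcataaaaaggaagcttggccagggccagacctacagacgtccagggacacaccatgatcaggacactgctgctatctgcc
Prss2: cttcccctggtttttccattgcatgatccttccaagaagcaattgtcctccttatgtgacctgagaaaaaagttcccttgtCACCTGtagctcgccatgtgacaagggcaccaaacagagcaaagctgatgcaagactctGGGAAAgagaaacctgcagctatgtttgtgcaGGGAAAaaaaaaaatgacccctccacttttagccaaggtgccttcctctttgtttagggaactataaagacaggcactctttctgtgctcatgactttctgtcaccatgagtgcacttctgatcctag

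CACCTG stood in 9 of the 15 pancreatic windows (Prss2, Try4, Ctrl, Cela1, Cela2a, Cela3b, Cpb1, Cel and Amy2b) and in 1 of the 13 salivary and lacrimal windows (Scgb2b27), against 20.2% of all 32851 windows. TTTCCC stood in 7 of 15 and 3 of 13, against 25.2% of all. Both boxes together stood in 5 pancreatic windows and in no salivary or lacrimal window, against 4.86% of all, and the paired site stood in Cel and Cpa1 and in 0.271% of all windows. The CACCTG letters can also be part of a paired site, as in Cel. A match is a description of letters and no sign of binding. Cel, with 4 CACCTG boxes, was detected in 7 libraries and Cpa1 in 1, so the members that share the paired site did not share a pattern of detection.

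Most members were present in some libraries and absent from others. Of the 31 members, 27 had a count in at least 1 library, and 159 of the 341 member and library pairs held a count. Lpo and Rnase1 were detected in all 11 libraries, Ctrb1 in 10, Dcpp1 and Dcpp2 in 9 and Cela2a and Pnliprp1 in 8. Another 17 members were found in 3 to 7 libraries. Cpa1, Cpb1 and Scgb1b27 were found in 1, and Smr2, Dcpp3, Obp1a and Scgb2b27 in none. Where a member was detected, its count was seldom below 10: 154 of the 159 detected values rested on 10 or more counts. The other 3.15% rested on 1 to 9 counts. That share was 14.4% for all genes with a count and 5.14% for all genes tested in the fit of 11 libraries. Reads carry no molecular identifiers, so the number of molecules behind a count is not known.

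**Figure D1:**
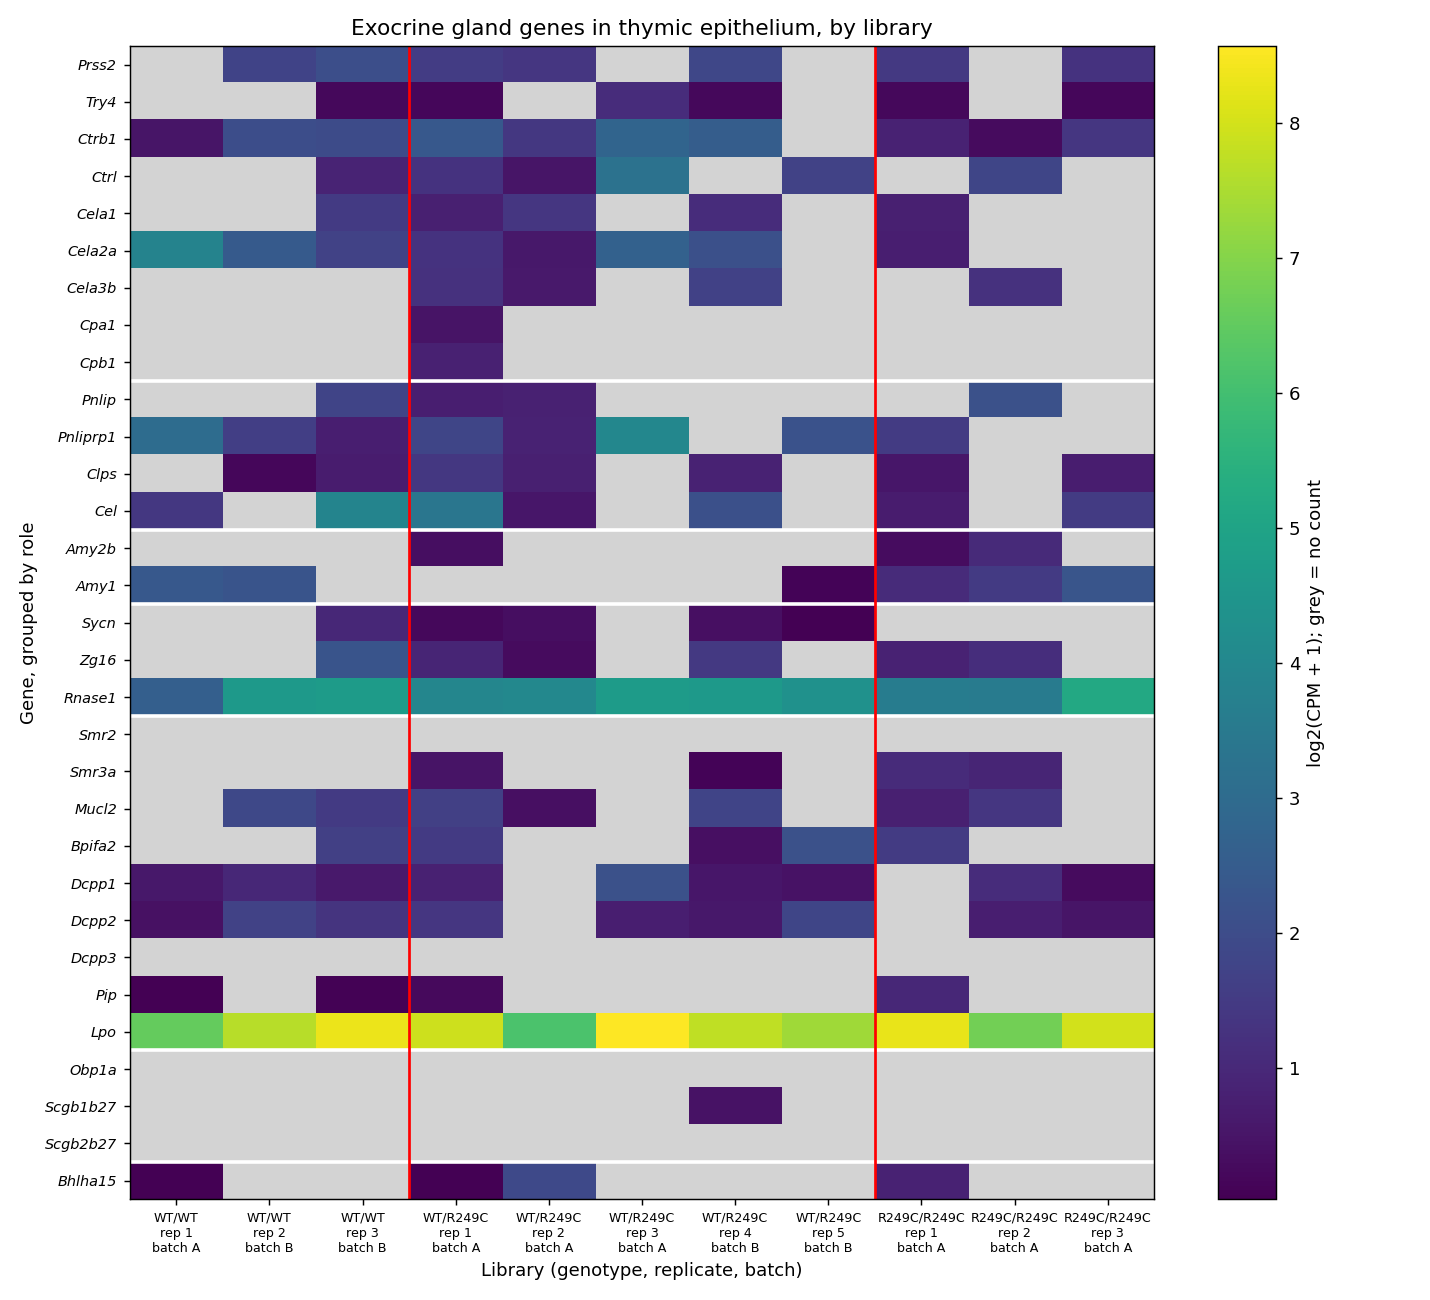
Level of each of the 31 members (rows, grouped by role with white lines) in each library (columns, genotypes separated by red lines), as log2(CPM + 1) in color, with grey for no count. Lpo and Rnase1 have a color in all 11 columns, while Cpa1 and Cpb1 have a color in WT/R249C replicate 1 alone.

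The number of members detected was 11, 11 and 19 in WT/WT replicates 1, 2 and 3. It was 25, 16, 9, 18 and 9 in WT/R249C replicates 1 to 5, and 18, 13 and 10 in R249C/R249C replicates 1 to 3. The genotypes overlapped, and the highest and the lowest library were both WT/R249C. Per genotype, 44.1% of the pairs held a count in WT/WT libraries, 49.7% in those of WT/R249C and 44.1% in those of R249C/R249C. Thinning every library to 60560348 counts (mean of 10 draws) left 8.9 to 25 members per library and moved no library by a whole member. Genes of any kind also differed after thinning. They ran from 24152 to 29409 in WT/WT, 22101 to 30098 in WT/R249C and 24943 to 27308 in R249C/R249C. WT/R249C replicate 1, with 25 members, held the most genes and WT/R249C replicate 3, with 9, the fewest. The part of this in the member counts was not tested.

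**Figure D2:**
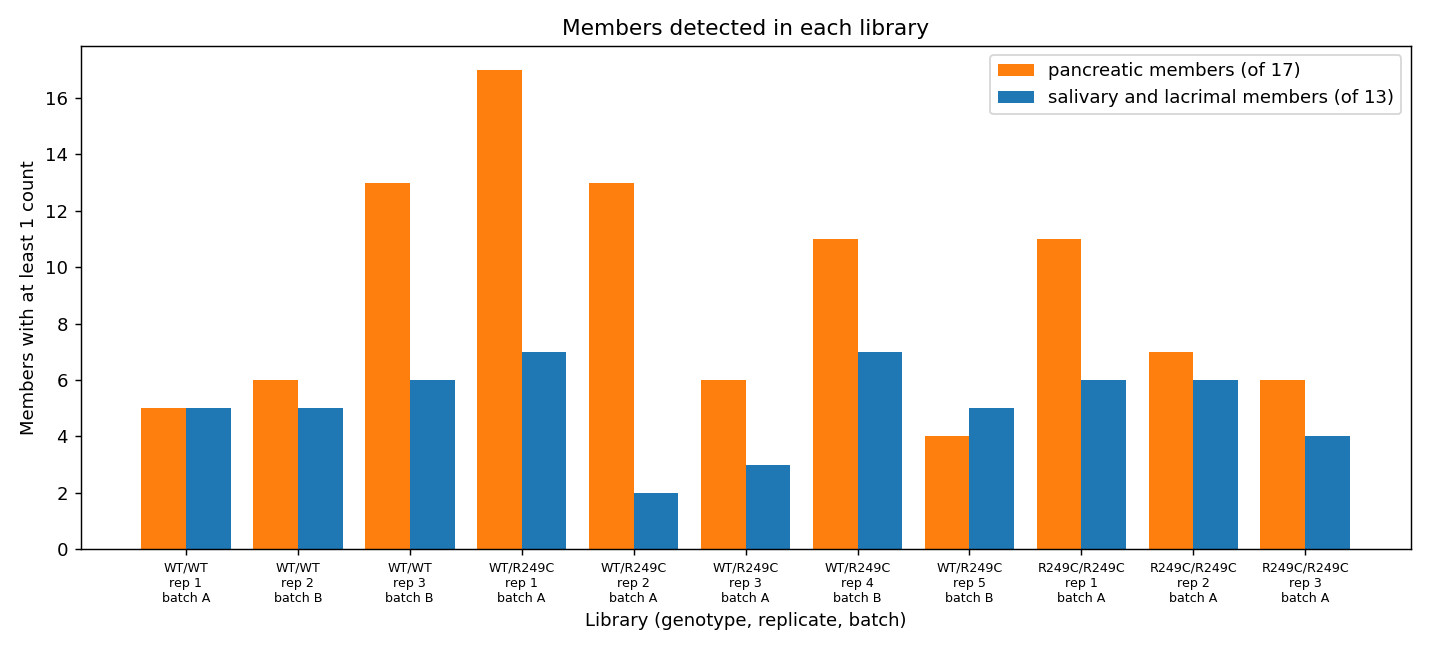
Number of members with at least 1 count in each library, with pancreatic members (of 17) and salivary and lacrimal members (of 13) as separate bars. WT/R249C replicate 1 reaches all 17 pancreatic members, and WT/R249C replicate 2 has 13 pancreatic members beside 2 salivary ones.

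The pancreatic members and the gland members did not always go together. WT/R249C replicate 1 held all 17 pancreatic members and 7 of 13 salivary and lacrimal members. WT/R249C replicate 2 held 13 pancreatic members but only 2 of the others, Lpo and Mucl2. WT/R249C replicate 5 held 4 pancreatic and 5 salivary members. WT/R249C replicate 3, with 9 members the sparsest together with replicate 5, had the highest CPM of all libraries for 6 of the 27 detected members. WT/WT replicate 3 came next with 5. The share of all genes that peaked in each library was not counted.

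Among the 9 pancreatic proteases, Ctrb1, a chymotrypsinogen, was the most widely detected. Ctrb1 stood at 0.426, 3.11 and 2.97 CPM in WT/WT replicates 1 to 3. In WT/R249C replicates 1 to 5 it stood at 4.18, 1.66, 5.85, 4.90 and 0 CPM, and in R249C/R249C at 0.801, 0.213 and 1.60 CPM. The R249C/R249C libraries overlapped those of WT/WT and lay below all 3 WT/R249C libraries of their own batch. Ctrl, a chymotrypsin-like protease, was found in 6 libraries at up to 8.50 CPM in WT/R249C replicate 3, where it exceeded the next WT/R249C library (2.29 CPM).

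Cela2a, a pancreatic elastase, was detected in all WT/WT libraries and in 1 R249C/R249C library. It measured 13.3, 4.46 and 2.28 CPM in WT/WT. It measured 1.43, 0.489, 5.48, 3.34 and 0 CPM in WT/R249C and 0.685, 0 and 0 CPM in R249C/R249C. All R249C/R249C values were below all WT/WT values, and the WT/R249C values spread across both. Cela3b, another elastase, differed from Cela2a in WT/WT, where it was at 0 in all libraries. It measured 1.37, 0.540, 0, 2.18 and 0 CPM in WT/R249C, and 0, 1.40 and 0 CPM in R249C/R249C. Like Cela2a, it was thus detected in 1 R249C/R249C library. Cela1 was found in 5 libraries, at up to 1.80 CPM.

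Prss2, a trypsinogen, was found in 7 libraries at up to 3.23 CPM, and Try4, another trypsin, in 6 libraries at up to 1.16 CPM. They were found together in 5 libraries. Their transcripts are 90.0% identical and Try4 is 97.1% identical to Try5, so reads may have been divided among the trypsins in ways the table does not show. The carboxypeptidases Cpa1 and Cpb1, which cut amino acids from the ends of peptides, appeared in WT/R249C replicate 1 alone, at 0.401 and 0.774 CPM.

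Of the lipid-digesting members, Pnliprp1, a relative of pancreatic lipase, was detected in 8 libraries. It measured 7.19, 2.06 and 0.686 CPM in WT/WT, 2.53, 0.793, 14.7, 0 and 3.55 CPM in WT/R249C, and 1.87, 0 and 0 CPM in R249C/R249C. The 3 genotypes overlapped, with the highest value in WT/R249C replicate 3. Pnlip, pancreatic lipase itself, is the next coding gene to Pnliprp1 and was detected in 4 libraries, 3 of them with Pnliprp1, at up to 3.39 CPM. Clps, the colipase that anchors the lipase on fat droplets, was found in 7 libraries at up to 1.68 CPM. Cel, which splits cholesterol esters and other lipids, was found in 7 libraries and ranged from 0 to 13.7 CPM, the latter in WT/WT replicate 3.

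The amylases split starch, and Amy1 is the form of salivary gland and liver. Amy1 measured 4.16, 3.73 and 0 CPM in WT/WT. It was at 0 in WT/R249C replicates 1 to 4 and at 0.0722 CPM (6 counts) in replicate 5, while R249C/R249C replicates 1 to 3 measured 1.13, 1.76 and 3.92 CPM. All R249C/R249C libraries thus lay above all WT/R249C libraries, and WT/WT held both high values and a value of 0. This separation follows the titles: with the contested replicates 4 and 5 taken by their genotype entry, R249C/R249C would run from 0 to 3.92 CPM. Within batch A, 3.45% of all genes tested were higher in R249C/R249C without overlap. That share was not counted against all 5 WT/R249C libraries. Amy2b, a pancreatic amylase, was at 0 in WT/WT, at 0.260, 0, 0, 0 and 0 CPM in WT/R249C and at 0.249, 1.05 and 0 CPM in R249C/R249C. The Amy1 and Amy2b transcripts are 89.5% identical, Amy2b and Amy2a5 97.6%, and GENCODE M21 lists Amy2b as an unprocessed pseudogene, so the split of counts among amylases is uncertain.

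Rnase1, the pancreatic ribonuclease, is also made outside the pancreas, in endothelium among other tissues. It measured 5.19, 23.8 and 25.5 CPM in WT/WT, 14.3, 15.1, 25.03, 23.5 and 19.6 CPM in WT/R249C, and 11.1, 11.1 and 35.6 CPM in R249C/R249C. The lowest library was WT/WT replicate 1 and the highest R249C/R249C replicate 3, so the genotypes overlapped. The endothelial markers Pecam1 and Cdh5 were both detected in every library and summed to 17.8 CPM in R249C/R249C replicate 3, their lowest sum, and to 30.1 CPM in WT/WT replicate 1. Sycn, a protein of zymogen granule membranes, was at 0, 0 and 0.987 CPM in WT/WT, at 0.155, 0.270, 0, 0.302 and 0.0241 CPM in WT/R249C, and at 0 in all R249C/R249C libraries. Zg16, a lectin of zymogen granules, was found in 6 libraries at up to 3.72 CPM.

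Rnase1 made up 18.7% to 86.2% of the summed CPM of the pancreatic members. Without it, a division chosen after the values were seen, the sum was 22.6, 12.1 and 33.4 CPM in WT/WT. It was 28.0, 9.49, 35.7, 20.5 and 5.86 CPM in WT/R249C, and 8.07, 9.80 and 5.70 CPM in R249C/R249C. The R249C/R249C sums without Rnase1 were all below the WT/WT sums, the closest being 9.80 and 12.1 CPM. This follows the titles: the contested WT/R249C replicate 4, R249C/R249C by its genotype entry, lay within the WT/WT range at 20.5 CPM. The R249C/R249C sums overlapped those of WT/R249C, and R249C/R249C replicate 3 was the lowest of all 11 libraries. With Rnase1 the sums overlapped, at 27.8, 35.9 and 58.9 CPM in WT/WT and 19.2, 20.9 and 41.3 CPM in R249C/R249C. Of the 15 pancreatic members tested, 8 had a positive and 7 a negative fitted value against WT/WT, with a median of 0.03. Over all genes tested singly, 4.68% were lower in R249C/R249C without overlap. All R249C/R249C libraries are in batch A and 2 of the 3 WT/WT libraries in batch B, and no test was made of this sum.

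Lpo, lactoperoxidase, an antibacterial enzyme of saliva, tears and airway fluid, was by far the most abundant member. It measured 92.5, 198 and 316 CPM in WT/WT, 243, 69.4, 378, 212 and 163 CPM in WT/R249C, and 311, 108 and 253 CPM in R249C/R249C. Each genotype held low and high libraries, and the highest exceeded the lowest 5.45-fold. Lpo supplied 94.7% to 99.6% of the summed CPM of the salivary and lacrimal members. Scaled to exon length, its mean level was 68.0 CPM per kilobase, against 19.2 for Rnase1, 2.66 for Ctrb1, 1.66 for Cela2a and Prss2, and 140 for Aire.

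The other salivary members were sparse. Dcpp1 and Dcpp2, demilune cell proteins of the sublingual gland, were detected in the same 9 libraries. Dcpp1 measured 0.492, 0.964 and 0.532 CPM in WT/WT, 0.753, 0, 3.40, 0.472 and 0.373 CPM in WT/R249C, and 0, 1.14 and 0.218 CPM in R249C/R249C. Dcpp2 measured 0.322, 2.32 and 1.46 CPM in WT/WT, 1.63, 0, 0.677, 0.495 and 2.49 CPM in WT/R249C, and 0, 0.677 and 0.413 CPM in R249C/R249C. Both were absent from WT/R249C replicate 2 and R249C/R249C replicate 1. The genes are neighbors, their transcripts are 92.1% and their promoter windows 97.0% identical, and Dcpp3, at 0 everywhere, is 96.9% identical to Dcpp2, so reads of the family may have been assigned to either copy.

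Smr3a, a submaxillary gland androgen-regulated protein, was at 0 in all WT/WT libraries. It measured 0.380, 0, 0, 0.0929 and 0 CPM in WT/R249C and 1.10, 0.880 and 0 CPM in R249C/R249C, so each mutant genotype held libraries with and without it. Mucl2, a mucin-like protein, was found in 7 libraries at up to 2.67 CPM, Bpifa2, a parotid secretory protein, in 5 at up to 3.38 CPM, and Pip, prolactin-induced protein, in 4 at up to 0.979 CPM. Of the lacrimal and nasal products, the secretoglobin Scgb1b27 was seen in WT/R249C replicate 4 alone, at 0.348 CPM, and Obp1a, an odorant-binding protein, and Scgb2b27 were listed at 0.

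Bhlha15, or Mist1, drives the secretory architecture of acinar cells. It measured 0.0379, 0 and 0 CPM in WT/WT, 0.0211, 2.79, 0, 0 and 0 CPM in WT/R249C, and 0.810, 0 and 0 CPM in R249C/R249C. Most libraries held no count, and the highest value, in WT/R249C replicate 2, stood in the library with 13 pancreatic members. WT/R249C replicate 1, with all 17, had 0.0211 CPM.

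**Figure D3:**
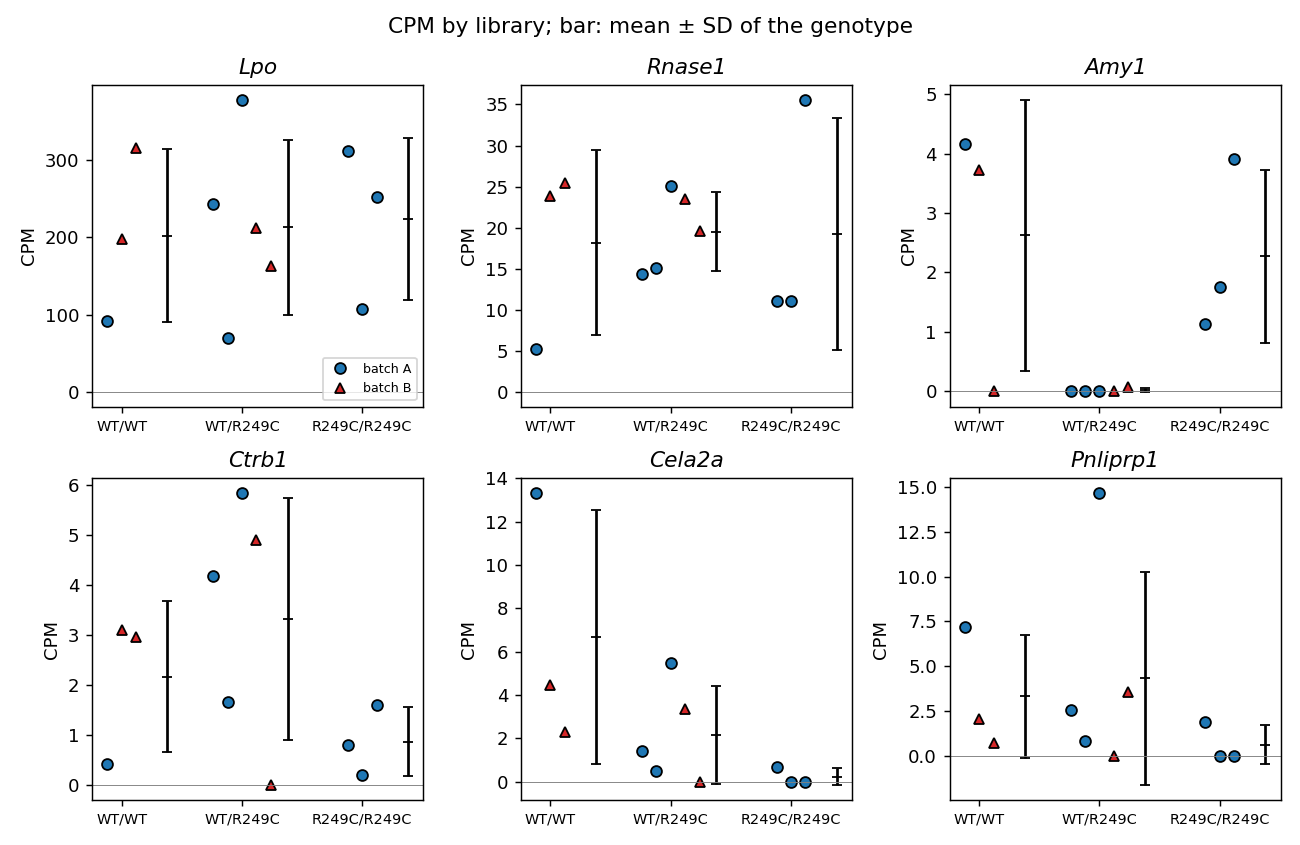
CPM of 6 members in each library by genotype, with blue circles for batch A, red triangles for batch B and the bar at the right of each genotype for mean ± SD (n = 3, 5 and 3). Lpo and Rnase1 overlap among genotypes, Cela2a lies lower in R249C/R249C than in WT/WT, and Amy1 is at or near 0 in all 5 WT/R249C libraries.

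Lpo followed Aire from library to library. The lowest Lpo value (69.4 CPM, WT/R249C replicate 2) stood with the lowest Aire value (174 CPM), and the highest (378 CPM, WT/R249C replicate 3) with the Aire value ranked second of 11 (769 CPM). Across the 11 libraries Spearman's rho was 0.936 and Pearson's r 0.891, and within the 7 libraries of batch A they were 0.893 and 0.889. Batch B holds 4 libraries, too few for a value. Without WT/R249C replicate 2 and WT/WT replicate 1, the libraries farthest from the median of Aire, r was 0.814. Lpo per 100 CPM of Aire stayed between 29.5 and 50.6, with WT/WT at 29.7 to 50.6, WT/R249C at 36.1 to 49.2 and R249C/R249C at 29.5 to 49.2.

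This relation was picked after the values were seen and is given as a description, with no p. Of 21234 genes with a count in at least 9 libraries, 13 (0.0612%) had a rho with Aire as high. The points share library totals and the proportion of mature medullary cells in each sort, and in bulk samples fewer cells of a type and less RNA per cell cannot be told apart. The same measure was 0.673 for Rnase1, 0.382 for Ctrb1, 0.141 for Dcpp2 and 0.068 for Dcpp1. Among the markers set against Aire it was 0.764 for Cd40, 0.682 for Tnfrsf11a, 0.600 for Cd80 and 0.127 for Epcam. Within batch A, rho was 0.893 for Cd80, 0.786 for Tnfrsf11a and 0.750 for Cd40, and r was 0.897, 0.802 and 0.895. Of the mature medullary markers, Cd86, H2-Aa and Ccl22 were not set against Aire. The CPM of Cd86 and H2-Aa overlapped among the genotypes. Ccl22 ran from 51.7 to 81.1 CPM in WT/WT, 11.5 to 52.4 in WT/R249C and 15.2 to 26.1 in R249C/R249C. Aire ran from 312 to 768, 174 to 769 and 318 to 858 CPM in the same order.

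**Figure D4:**
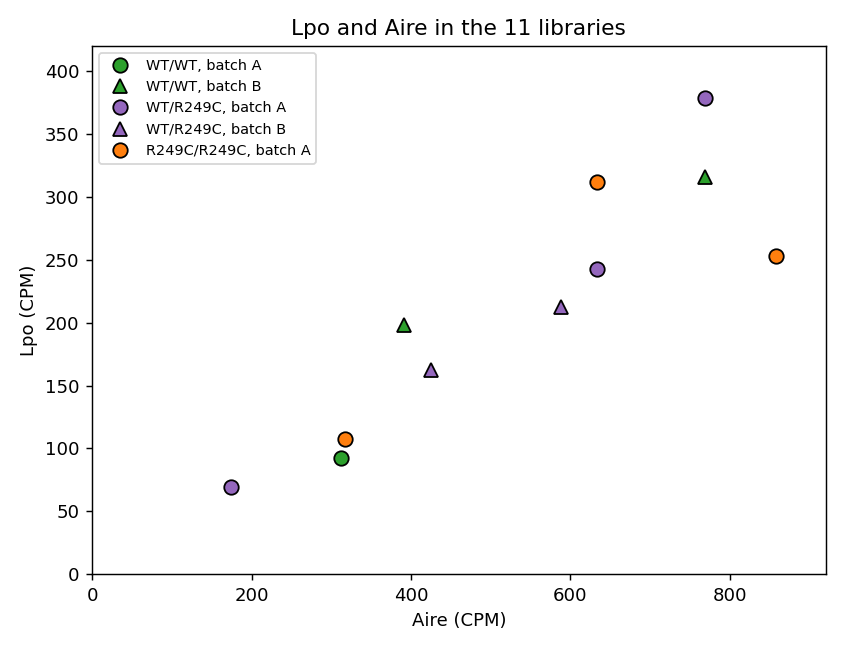
Lpo against Aire in CPM, 1 point per library, colored by genotype with circles for batch A and triangles for batch B. Libraries of all 3 genotypes lie along a common rising band from 69.4 to 378 CPM of Lpo.

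R249C/R249C libraries were set against WT/WT to ask what differs when both Aire copies carry the variant. None of the 22 members with enough counts to be tested was called, and none of all 26980 genes tested (0%) passed an adjusted p of 0.05 in edgeR's quasi-likelihood test with Benjamini-Hochberg correction. At an unadjusted p under 0.05 there were 0 of 22 members, against 865 genes, or 3.21% of those tested, and limma voom also called 0 genes. Cela2a, lower in R249C/R249C, was the 1 member whose genotypes did not overlap, while 8.1% of all genes tested did not overlap, 4.68% lower and 3.42% higher. Its fitted log2 fold change, adjusted for batch, was -5.22 (SE 2.90, 95% interval -11.78 to 1.35, adjusted p = 1). Within batch A it was -5.79, against WT/WT replicate 1 alone. With the contested libraries counted as R249C/R249C it was -3.54, and 1 of them, WT/R249C replicate 4 at 3.34 CPM, then lay within the WT/WT range. Leaving out 1 library gave -13.02 (without R249C/R249C replicate 1, the only one of its genotype with a count) to -4.17 (without WT/WT replicate 1), with -8.70 without WT/R249C replicate 4. Smr3a and Cela3b, at 0 in WT/WT, were at least 95.8-fold and at least 64.6-fold higher by pooled counts, and Sycn, at 0 in R249C/R249C, at least 44.9-fold lower. These bounds use a floor of 3 counts over the group and each rests on 1 or 2 libraries with counts, with an edgeR adjusted p of 1.

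The abundant members had the narrowest intervals. Lpo gave 0.47 (95% interval -1.34 to 2.28) and Rnase1 0.91 (-0.76 to 2.58) on the log2 scale for R249C/R249C against WT/WT. The sign for Lpo rested on WT/WT replicate 1, without which it was -0.31, and the value for Rnase1 was 0.02 without the same library. Of the 22 members 13 had a positive and 9 a negative fitted value, with a median of 0.43, against -0.02 over all genes tested. For the 4 members at 0 in a genotype, the bound lies on the same side of the median as the fitted value. Setting them at their bound therefore cannot move it. Leaving out WT/WT replicate 1 moved the median to -1.26, and leaving out WT/WT replicate 3 moved it to 1.72. It was 6.43 with a replicate block, 7.22 with the contested libraries left out and 3.00 in batch A alone, and it was negative with no batch term (-0.37) and in limma voom (-0.30). In batch A alone, WT/WT is replicate 1, with 5 pancreatic members detected. Without the contested libraries batch B holds WT/WT only, so the batch-adjusted comparison rests on replicate 1 again. DESeq2 called Cela3b here (adjusted p = 0.000522), 1 of the 19 members to which it gave an adjusted p, against 408 of 25063 genes (1.63%).

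WT/R249C against WT/WT asks what differs when 1 copy carries the variant. In edgeR again no member of 22 and no gene of 26980 was called (0%), and no member had genotypes that did not overlap, against 2.93% of all genes (1.1% higher and 1.83% lower in WT/R249C). Amy1 was the 1 member of 22 at an unadjusted p under 0.05, against 940 genes, or 3.48% of those tested, and limma voom called 0 genes. Its fitted log2 fold change was -8.42 (SE 2.68, 95% interval -14.49 to -2.35, edgeR adjusted p = 1), and WT/WT replicate 3, at 0, lay among the WT/R249C values. With 1 library left out it ran from -11.55 (without WT/R249C replicate 5, the only one of its genotype with a count) to -5.68 (without WT/WT replicate 1). Within batch A all 3 WT/R249C libraries were at 0 against 4.16 CPM in WT/WT replicate 1, and within batch B, where both WT/R249C libraries carry contradicting labels, the values were 0 and 0.0722 CPM against 3.73 and 0 CPM.

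Against WT/WT, WT/R249C was at least 139-fold higher for Cela3b, at least 16.96-fold for Smr3a and at least 9.51-fold for Amy2b by pooled counts, with an edgeR adjusted p of 1. Counts stood behind these bounds in 3, 2 and 1 of the 5 libraries. Lpo gave 0.23 (-1.21 to 1.67) and Rnase1 0.56 (-0.76 to 1.89) on the log2 scale. Without WT/WT replicate 1 both turned negative, to -0.40 and -0.15. Of 22 members 18 had a positive and 4 a negative fitted value, with a median of 0.55 against 0.02 over all genes. That median was -0.36 with WT/WT replicate 1 left out and 2.96 with WT/WT replicate 3 left out, and 6.83 to 7.45 with the replicate block, in batch A alone or without the contested libraries. In batch A alone and without the contested libraries, the WT/WT side of the comparison rests on replicate 1. In batch B alone the median was -0.41. Both comparisons share the WT/WT libraries. DESeq2 called Amy1 (adjusted p = 0.0203) and Cela3b (adjusted p = 3.14e-06), 2 of the 19 members to which it gave an adjusted p, against 276 of 24063 genes (1.15%).

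R249C/R249C against WT/R249C was compared within batch A, 3 libraries each, which leaves the contested libraries out. edgeR called no member of 20 and no gene of 23695 (0%). Amy1 and Ctrb1 were the 2 members whose genotypes did not overlap, Amy1 higher and Ctrb1 lower in R249C/R249C, against 8.85% of all genes tested, 3.45% higher and 5.41% lower. Amy1 was at least 233-fold higher by pooled counts, since all 3 WT/R249C libraries were at 0 (edgeR adjusted p = 1.00). Amy1 was the 1 member of 20 at an unadjusted p under 0.05, against 256 genes, or 1.08% of those tested. DESeq2 called it (adjusted p = 0.000644), 1 of the 17 members to which it gave an adjusted p, against 33 of 20971 genes (0.157%), and limma voom called 0. Ctrb1 gave -2.10 (SE 1.12, 95% interval -4.83 to 0.62), Cela2a -3.27 (SE 2.56) and Pnliprp1 -3.09 (SE 2.69), the last 2 with overlapping libraries. Without R249C/R249C replicate 1, the only one with a count of either gene, Cela2a was -10.91 and Pnliprp1 -12.18, and without WT/R249C replicate 3 they were -2.03 and -1.39.

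Between the mutant genotypes Lpo gave 0.04 (-1.56 to 1.64) and Rnase1 0.13 (-1.25 to 1.51) on the log2 scale. The sign of Lpo turned without WT/R249C replicate 2 (-0.38), R249C/R249C replicate 1 (-0.30) or R249C/R249C replicate 3 (-0.02), and that of Rnase1 without R249C/R249C replicate 3 (-0.63). Of the 20 members 7 had a positive and 13 a negative fitted value, with a median of -0.79 against 0.01 over all genes. The 14 pancreatic members tested gave a median of -1.37, with 4 positive and 10 negative, and the 6 salivary members -0.03, with 3 and 3. Without WT/R249C replicate 1 the median of all members was 0.14.

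**Figure D5:**
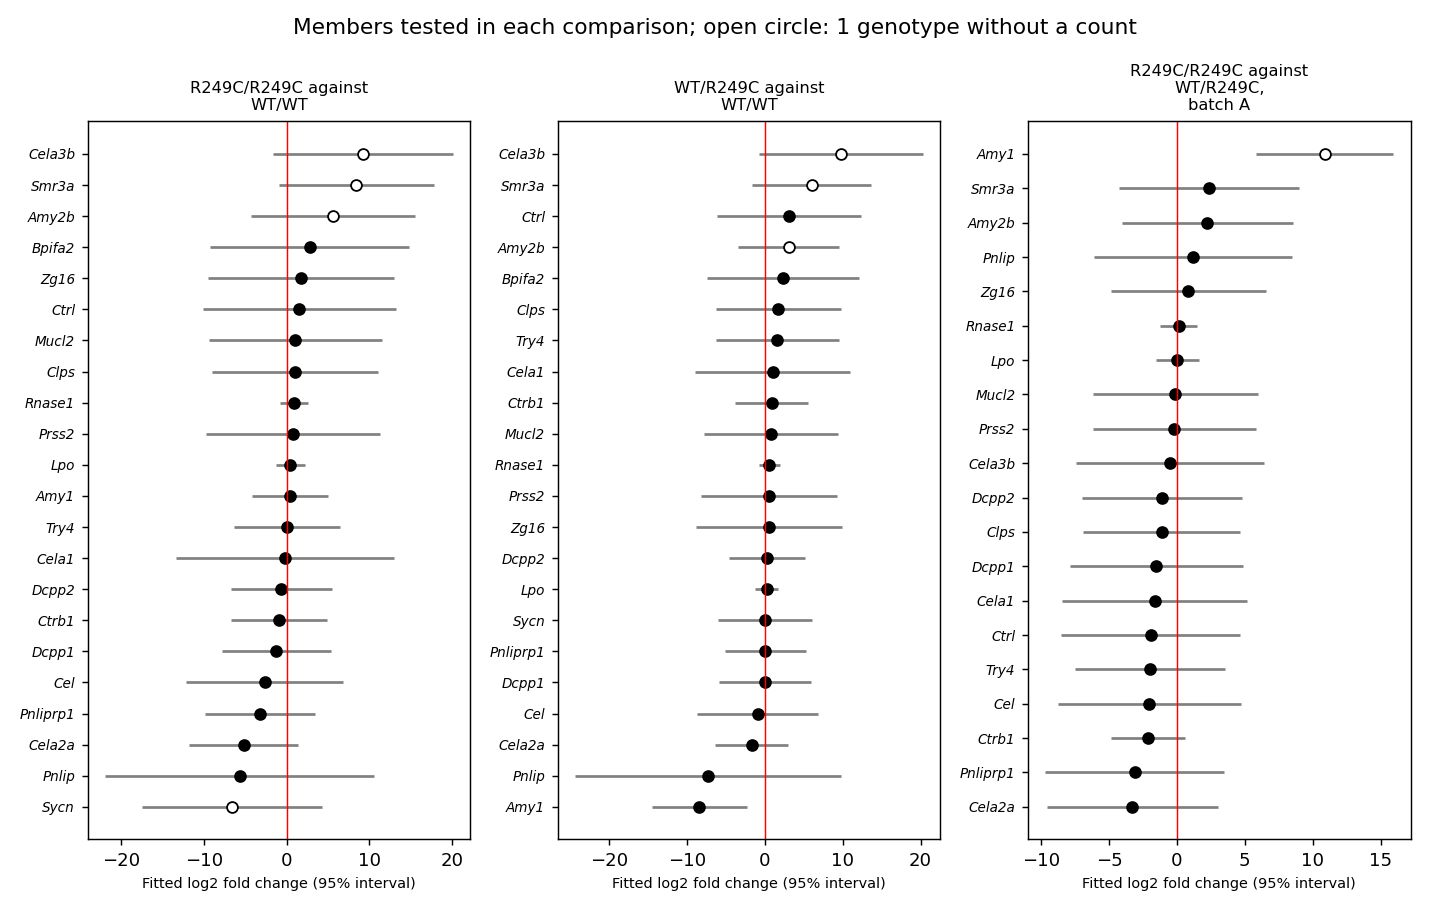
Fitted log2 fold change of each tested member with its 95% interval from edgeR in the 3 comparisons, with open circles where 1 genotype held no count and the fitted value depends on the prior count. Lpo and Rnase1 have the narrowest intervals, and the Amy1 interval lies off 0 in 2 of the 3 panels.

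Further genes of the same tissues, from lists that hold no member, were not called by edgeR in any comparison. Of 24 other acinar genes, 17, 17 and 15 were tested in the 3 comparisons, and of 28 other salivary and lacrimal genes, 19, 19 and 15. The medians of the acinar list were 0.38, 0.82 and -0.86 and those of the gland list 1.77, 0.99 and 0.60. The medians over all genes tested were -0.02, 0.02 and 0.01. Some of these genes had counts in every library: Reg3g, an antimicrobial lectin of gut and pancreas, ran from 45.8 to 301 CPM, Gp2, a zymogen granule protein that M cells also carry, from 22.2 to 153 CPM, and Bpifa1, a secreted protein of the upper airways, from 192 to 1912 CPM. Pigr, the transporter of antibodies into secretions, ran from 3.30 to 45.5 CPM, Ltf, the iron-binding lactoferrin, from 0.105 to 73.5 CPM, and Klk1, tissue kallikrein, from 0.337 to 17.9 CPM. At an unadjusted edgeR p under 0.05 there were 2 of 19 gland genes for R249C/R249C against WT/WT, Egf and Muc5b. Of all genes tested there, 3.21% passed. For R249C/R249C against WT/R249C in batch A there were 2 of 15, Egf and Bpifa1, against 1.08% of all genes tested. These genes are named here after their values were seen. Egf, a growth factor of the submandibular gland, was higher in R249C/R249C without overlap in both, at 4.87 to 12.8 CPM against 0 to 4.03 CPM in WT/WT and 0.0660 to 1.81 CPM in WT/R249C of batch A, with log2 fold changes of 6.62 and 3.15 (edgeR adjusted p of 1 and 1.00). WT/R249C replicate 5, in batch B, was at 13.8 CPM. Of all genes tested, 3.42% were higher in R249C/R249C without overlap against WT/WT, and 3.45% against WT/R249C in batch A. Muc5b, a gel-forming mucin, was at 0 in WT/WT and at 0 to 4.32 CPM in R249C/R249C, and Bpifa1 gave a log2 fold change of 2.22 (edgeR adjusted p = 1.00). DESeq2 called Egf (adjusted p = 0.00221) and Muc5b (adjusted p = 0.0456) for R249C/R249C against WT/WT. These were 2 of the 14 gland genes with an adjusted p, against 1.63% of all genes. DESeq2 also called the acinar gene Pnliprp2, at 0 in WT/WT, for both mutant genotypes against WT/WT (adjusted p = 0.0038 and 3.75e-05). Pnliprp2 had counts in 1 of 3 R249C/R249C and 2 of 5 WT/R249C libraries. It was 1 of 13 acinar genes with an adjusted p each time, against 1.63% and 1.15% of all genes.

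Regulators of gland fate were present in part. Ptf1a, the defining factor of acinar cells, was detected in 7 libraries at up to 4.10 CPM, and its partner Rbpjl in 9 at up to 15.04 CPM. Nr5a2, which supports acinar genes, was found in 8 libraries and Gata4 in 9. Sox10, a factor of salivary and lacrimal acini, reached 19.4 CPM in 9 libraries, Elf5 6.51 CPM in 7 and Spdef, a factor of mucous cells, 10.5 CPM in 9. Xbp1, which prepares cells for secretion, ran from 212 to 341 CPM, with Creb3l1 at 3.52 to 24.5 and Barx2 at 0.422 to 11.9 CPM, all 3 in every library. edgeR called none of these regulators in any comparison. Xbp1 was the 1 of 11 regulators at an unadjusted p under 0.05 for WT/R249C against WT/WT, against 3.48% of all genes tested. Its log2 fold change was -0.40 (edgeR adjusted p = 1). Its R249C/R249C values (230 to 298 CPM) lay below those of WT/WT (304 to 341 CPM), as did 4.68% of all genes tested. The B lineage markers summed to 1394 to 2989 CPM in WT/WT, 92.9 to 481 in WT/R249C and 248.7 to 531 in R249C/R249C. Their part in the Xbp1 values was not tested. DESeq2 called Nr5a2 for WT/R249C against WT/WT (log2 fold change -7.35, adjusted p = 0.0390). That was 1 of the 9 regulators with an adjusted p, against 1.15% of all genes. The Nr5a2 values overlapped, at 0.197 to 3.09 CPM in WT/WT and 0 to 2.46 CPM in WT/R249C, where 2 of 5 libraries held a count. Pooled over libraries Nr5a2 was at 1.41 CPM in WT/WT and 1.01 CPM in WT/R249C, far closer than the fitted fold. Its unadjusted edgeR p was 0.0894.

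The 7 libraries with Ptf1a counts held 5 to 17 pancreatic members, with a median of 11, and the 4 without held 4 to 6. The libraries with Ptf1a also held more genes of any kind after thinning, 24448 to 30098 against 22101 to 24943, and the part of this in the member counts was not tested. Libraries with Rbpjl counts held 6 to 17 pancreatic members and the other 2 held 4 and 5.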

How the data were processed

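The authors deposited 1 table of raw counts, whole numbers with a row per gene and a column per library. FastQC, HISAT2, StringTie and build mm39 are named in the submitters' processing notes. Versions, the annotation release and whether strand was used are not given in the sources used here. Per the file headers, reads of the 7 batch A columns are marked as trimmed, unlike those of the 4 batch B columns. GENCODE M21 names gave a symbol to 52073 of 56691 genes, which covered 99.7% or more of each library.

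CPM are counts over the column total. Genotypes were compared in R 4.3.3 with edgeR 4.0.16 (quasi-likelihood F test, robust, TMM, filterByExpr, two-sided) on all tested genes, with batch as a covariate where both batches entered. DESeq2 1.42.0 and limma 3.58.1 (voom) served as alternatives. The fit was tested on simulated counts. Folds against a group at 0 are bounds at a floor of 3 counts. Reads carry no molecular identifiers.

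The members and lists were chosen with earlier results of these data known. Fitted values are given for the 4 members of smallest p per comparison and for those that did not overlap. CPM per library are given for these, for members detected in 9 or more libraries and for Bhlha15. Folds of Lpo and Rnase1 were added after the values were seen. A regulator on the gene lists is not reported here.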

Additional observations from a re-analysis of the deposited data

Results flagged for a closer look

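Within the 5 WT/R249C libraries, 12 of the 27 detected members had 1 library far from the others. This was judged by the gap to the nearest library over the whole range (above 0.71). For normally distributed values, chance passes that cutoff in about 1 of 20 groups. Member CPM are not so distributed, with 53.4% of their values over all libraries at 0, so that rate does not apply. The share of all genes flagged was not counted, and 12 of 27 is not read as an excess. In WT/R249C replicate 1 the flagged members were Cpb1 at 0.774 CPM, Cpa1 at 0.401 CPM, Smr3a at 0.380 CPM, Amy2b at 0.260 CPM and Pip at 0.197 CPM. In WT/R249C replicate 3 they were Pnliprp1 at 14.7 CPM, Ctrl at 8.50 CPM, Dcpp1 at 3.40 CPM and Try4 at 1.16 CPM. The others were Bhlha15 at 2.79 CPM in replicate 2, Scgb1b27 at 0.348 CPM in replicate 4 and Amy1 at 0.0722 CPM in replicate 5. All 12 lay above the rest of the genotype, and for 6 of them, Cpa1, Cpb1, Amy2b, Amy1, Pip and Scgb1b27, the other 4 libraries were at 0, where any count gives the full gap. For Bhlha15 and Smr3a the next library was near 0, at 0.0211 and 0.0929 CPM.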

How the results depend on the processing

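No gene was called by edgeR in the 3 comparisons under any alternative run: another scaling, no filter or a mean CPM of at least 1, the replicate block, no batch term, single batches, the contested libraries left out or counted as R249C/R249C, or each library left out (range 0 to 0). Limma voom also called 0. DESeq2 called 408, 276 and 33 genes (1.63%, 1.15% and 0.157%), with 1 of 19, 2 of 19 and 1 of 17 members, in the order R249C/R249C against WT/WT, WT/R249C against WT/WT and R249C/R249C against WT/R249C. Cela3b reached 21.8 and 22.2 in log2 there against WT/WT libraries at 0, and Amy1 -9.32 and 10.3.

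Fold changes that changed sign had intervals including 0. For R249C/R249C against WT/WT, Sycn, at -6.62 in the fit reported, was 0.0025 with the replicate block and 0 in batch A alone and without the contested libraries; in batch A neither genotype held a count. Leaving out libraries gave Sycn -8.55 to 0.10 and Lpo -0.31 to 0.83. For WT/R249C against WT/WT, Lpo was -0.13 with limma voom and -0.41 in batch B, and Rnase1 -0.15 in batch B. Leaving out libraries gave Lpo -0.40 to 0.55, Rnase1 -0.15 to 0.91 and Amy2b 0 to 4.14. For R249C/R249C against WT/R249C, Rnase1 was -0.066 with the replicate block. Leaving out libraries gave Lpo -0.38 to 0.50 and Rnase1 -0.63 to 0.42; Lpo was also -0.30 and -0.02 without R249C/R249C replicates 1 and 3. The cause was not tested. The fitted median over members rose to 6.43 (replicate block) and 7.22 (without contested libraries) for R249C/R249C, and to 7.45, 7.02 and, in batch A alone, 6.83 for WT/R249C, against WT/WT. In batch A alone and without the contested libraries, these medians rest on WT/WT replicate 1. Detection counts were 152 with a minimum of 0.1 CPM.

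Same-numbered libraries correlated at -0.16 to 0.22 (9 pairs) in their deviations from the genotype means, and others at -0.18 to 0.16, so the numbers do not pair the libraries. The block changed no call. Without WT/R249C replicates 3 and 5, chosen after seeing the data, 0 genes were called. WT/WT holds 1 library of batch A, which limits every comparison with it, and a member at 0 may lie below the depth of its library.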
